A study of Arabidopsis thaliana with 18 samples.

Results

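The genes described here belong to the alternative respiratory pathway of plant mitochondria and to the small set of genes known to respond to mitochondrial stress in Arabidopsis. The set was given by locus and comprised 8 genes: the alternative NAD(P)H dehydrogenases NDA1 (AT1G07180), NDA2 (AT2G29990), NDB2 (AT4G05020) and NDB4 (AT2G20800), the alternative oxidases AOX1A (AT3G22370) and AOX1D (AT1G32350), UPOX (AT2G21640) and OM66 (AT3G50930, also called BCS1). Of the 38408 transcripts on the array, 7 could be paired with these loci, 1 for each gene other than NDA1, which was not analysed here. Wild-type seedlings of ecotype Col-0 were grown hydroponically for 5 days in 0.5X MS medium with sucrose. They then had 7 days with no phosphate (0 mM, P0), a control supply (1.25 mM, P1.25) or an excess supply (20 mM, P20). Phosphate was given as a potassium salt, which potassium sulphate replaced at P0. The effect of phosphate thus cannot be told apart from that of potassium at P20 or of sulphate at P0. Root and shoot were harvested separately, each of the 6 groups had 3 replicates from independent experiments, and each replicate was hybridized to its own AraGene 1.0 ST array (18 arrays). No transgene or mutant is part of these groups, and all 6 shared the genotype, the first growth medium and the light regime. The study asked how the response to excess phosphate compares with the response to phosphate starvation.

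In the standard respiratory chain, electrons from NADH enter at complex I and leave at cytochrome c oxidase, and protons are pumped along the way. Alternative dehydrogenases feed electrons from NAD(P)H into ubiquinone, NDA proteins from the matrix side and NDB proteins from the intermembrane space, and alternative oxidases pass electrons from ubiquinol straight to oxygen. None of these enzymes pumps protons, so this route runs without tying oxidation to the synthesis of ATP from ADP and phosphate. AOX1A is the isoform best known for its induction when mitochondria are impaired, and UPOX and OM66, an ATPase of the outer mitochondrial membrane, are widely used as markers of the same kind of stress.

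Values are log2 intensities after robust multi-array average (RMA) normalization by the authors, so a difference of 1 is a 2-fold change. Levels are compared within a gene only, since each gene is read by its own probes. Differences, standard errors (SE) and p-values were taken from a single limma fit of the 6 group means to all 18 arrays. Each SE of a gene thus rests on its spread within all 6 groups. A gene was called changed at a Benjamini-Hochberg adjusted p under 0.1 over all 38408 transcripts, together with more than 2-fold for P0 and for root against shoot, and at any fold for P20 and for the difference of an effect between tissues. With 3 arrays in a group, 0.1 is the smallest two-sided p an exact permutation test can reach, and none was run.

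Certain features of the arrays touch the values below. The replicate 3 arrays at P1.25 and P20 stood apart in both tissues, since they held 41.9% to 47.3% of the squared deviation within their groups, against 34.1% and 35.8% for replicate 3 at P0. Results are therefore also given without these 4 arrays. Since they were chosen by their deviation, leaving them out tends to lower the spread by construction. The p-values and calls of that fit are thus a description of how values depend on these arrays. The 6 root markers with a transcript (of 17 listed) had a summed log2 value of 50.7 to 54.4 in root and 37.0 to 39.2 in shoot at P1.25. In starved shoots this sum lay at 42.6 to 43.8, with CASP1 and THAD1 called higher. The sum of the 6 green tissue markers (of 10 listed) fell from between 58.7 and 64.9 in P1.25 shoots to between 51.0 and 52.1 in P0 shoots, with 5 of 6 called lower. In root the root marker sum was lower at P0 (46.8 to 47.5) than at P1.25. CASP1, CASP2, CASP4 and THAD1 are named only by the study's list of transcripts changed at P0 in root, which fixes this fall in part. PYK10 and EXPA7, named by the platform, differed there by 0.05 and -0.64, neither called. LHCB1.2 and LHCB3 are named only by the list for P0 in shoot. Of the green markers named by the platform, LHCB4.2 and RCA were called lower in starved shoots and PRK was not. The part of these shifts in the results was not tested, and in whole organs fewer cells of a type and less RNA per cell cannot be told apart. Over all transcripts the median difference from P1.25 was -0.09 at P0 in root and -0.10 at P0 in shoot.

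The route by which a transcript received its gene name also matters. NDB2, NDB4 and UPOX are named by the annotation of the array platform. NDA2 and AOX1A are named only by the study's list of transcripts that changed at P0 in root, OM66 only by the list for P0 in shoot, and AOX1D by both lists. For these pairs of gene and tissue a change at P0 is a condition of being named, so those values are given as a description without a p-value. For NDA2, AOX1A and OM66 a p-value at P0 is given in the other tissue. It is not independent of the naming either, since these genes are read only because they changed at P0.

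**Figure D1:**
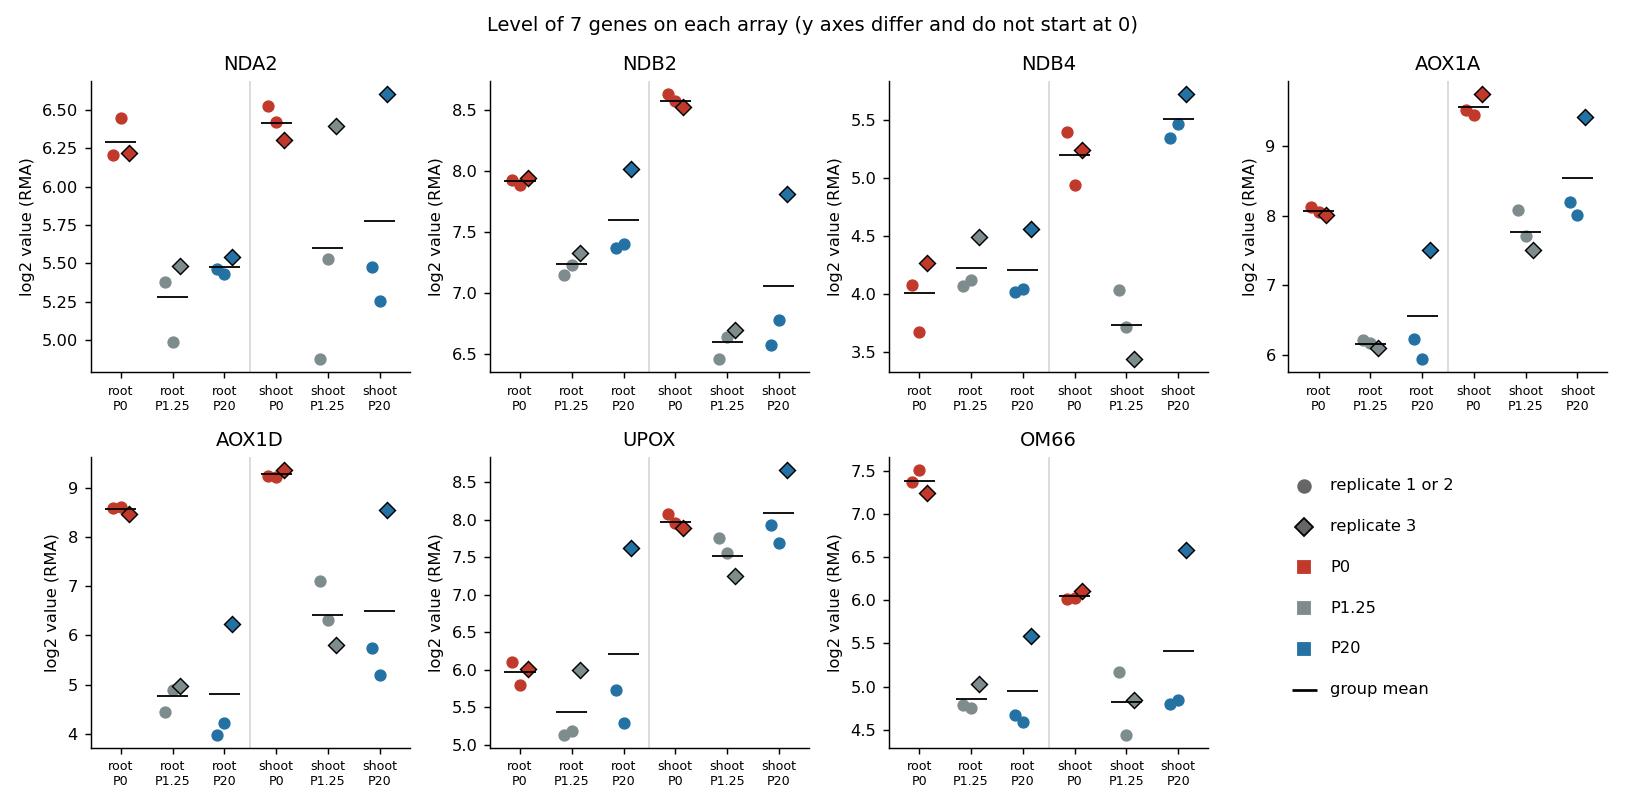
Log2 value (RMA) of the 7 genes on each of the 18 arrays, by tissue and phosphate supply. Circles are replicates 1 and 2, diamonds are replicate 3, bars are group means, and the y axes differ between genes and do not start at 0. The P0 arrays of AOX1A and AOX1D lie above their P1.25 arrays in both tissues, those of NDB4 at P0 and P20 lie above P1.25 in shoot and overlap with it in root, and the diamonds of AOX1D at P20 lie well above the circles.

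Phosphate starvation raised most of these genes. In root, AOX1D rose 13.9-fold, OM66 5.76-fold, AOX1A 3.75-fold and NDA2 2.01-fold. In shoot, AOX1D rose 7.30-fold, NDB2 3.94-fold, AOX1A 3.49-fold, NDB4 2.76-fold and OM66 2.35-fold. None of the 7 was called lower in root or in shoot, as 4.54% and 7.62% of all transcripts were. In all, 4 of 7 were called in root, where 9.23% of all transcripts were called and 4.69% were called higher. In shoot 5 of 7 were called, against 13.7% of all transcripts called and 6.12% called higher. Because 4 of the 7 owe their names to the study's P0 lists, these counts cannot be read against the background. Of the 3 genes named by the platform, limma called 0 in root, where 1 had an unadjusted p under 0.05, and 2 in shoot.

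NDA2, the dehydrogenase that faces the matrix, read 6.21, 6.45 and 6.22 on the root P0 arrays (replicates 1 to 3) and 5.38, 4.99 and 5.49 on the root P1.25 arrays. All starved roots were above all control roots, by 1.01 ± 0.34 (SE) on the log2 scale. At 2.01-fold the gene lay just inside the fold limit, and it was no longer called when root P1.25 replicate 2 was left out (difference 0.86) or when root P0 replicate 2 was left out (0.93). In shoot it read 6.52, 6.42 and 6.30 at P0 and 4.88, 5.53 and 6.39 at P1.25, so that replicate 3 of the control reached the starved level. The shoot difference of 0.82 ± 0.34 was 1.76-fold and did not pass the fold limit (adjusted p = 0.0856, limma). Without the replicate 3 arrays at P1.25 and P20 it became 1.21 with an adjusted p of 5.33e-04, and leaving out shoot P1.25 replicate 3 alone was enough for a call.

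NDB2, a dehydrogenase on the outer face of the inner membrane that is stimulated by calcium, had tightly grouped values at P0. Starved roots read 7.92, 7.88 and 7.94 against 7.15, 7.23 and 7.32 in control roots. The groups did not overlap, but the difference of 0.68 ± 0.25 was 1.60-fold and under the fold limit (adjusted p = 0.0622, limma). Starved shoots read 8.63, 8.57 and 8.52 against 6.46, 6.63 and 6.69 in control shoots. Here the gap between the groups was far wider than the spread within them, with a difference of 1.98 ± 0.25 (adjusted p = 4.38e-05, limma).

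NDB4, a second external NADH dehydrogenase, had the largest difference between tissues in its response to starvation. On root arrays it read 4.07, 3.67 and 4.26 at P0 and 4.07, 4.12 and 4.49 at P1.25. These values overlapped, and the difference of -0.22 ± 0.21 did not pass (adjusted p = 0.509, limma). On shoot arrays it read 5.39, 4.94 and 5.24 at P0 and 4.03, 3.71 and 3.44 at P1.25. Every starved shoot was above every control shoot, by 1.46 ± 0.21 (adjusted p = 1.36e-04, limma). The mean of NDB4 was low, at the 21st percentile of all transcripts in P1.25 shoot and the 29th to 31st in root. It lay at the 47th in P0 shoot and the 49th in P20 shoot. Without detection calls, whether the lower values are above background cannot be told. Of the related dehydrogenases, NDB3, also an external enzyme, gave 0.14 for root and -0.37 for shoot (adjusted p = 0.789 and 0.371, limma). NDC1, a dehydrogenase found in plastids as well as mitochondria, gave 0.17 for root and -0.40 for shoot (adjusted p = 0.365 and 0.0256, limma), in both cases under the fold limit. The remaining 5 of the 7 related genes listed (NDB1, AOX1B, AOX1C, AOX2 and the plastid terminal oxidase PTOX) were not analysed here.

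AOX1A, the main stress-responsive alternative oxidase, rose in both tissues. Starved roots read 8.12, 8.06 and 8.01 and control roots 6.21, 6.17 and 6.10, a difference of 1.91 ± 0.37. Starved shoots read 9.51, 9.44 and 9.74 and control shoots 8.08, 7.71 and 7.51. In neither tissue did the groups overlap. The shoot difference was 1.80 ± 0.37 (adjusted p = 0.00191, limma). It was not itself a condition of naming, but the gene is named only by its change in starved root.

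AOX1D, a second oxidase isoform, had the largest rise of the 7 in both tissues. Its root values were 8.60, 8.62 and 8.46 at P0 and 4.43, 4.89 and 4.96 at P1.25. The difference of 3.80 ± 0.70 was the 53rd largest rise among the 38408 transcripts in starved root, with falls not counted. Its shoot values were 9.24, 9.23 and 9.36 at P0 and 7.10, 6.31 and 5.81 at P1.25, a difference of 2.87 ± 0.70. The control shoots were widely spread (SD 0.65, n = 3), whereas the starved shoots were tight (SD 0.08).

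UPOX, a small mitochondrial protein named for its rise under oxidative stress, was not called at P0. Root values were 6.101, 5.790 and 6.002 at P0 against 5.13, 5.18 and 5.99 at P1.25, so control replicate 3 fell within the starved range. The root difference was 0.53 ± 0.45 (adjusted p = 0.459, limma). Without the replicate 3 arrays at P1.25 and P20 it was 0.81, past the p limit but under 2-fold (adjusted p = 0.00245, limma). Shoot values were 8.08, 7.95 and 7.88 at P0 against 7.75, 7.55 and 7.25. The shoot groups did not overlap, yet the difference of 0.45 ± 0.45 was about as large as its error (adjusted p = 0.486, limma). That error draws on all 6 groups, with an SD (n = 3) of 1.24 in P20 root, 0.25 in P1.25 shoot and 0.10 in P0 shoot. Without the same replicate 3 arrays the shoot difference was 0.32 (adjusted p = 0.123, limma).

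OM66 rose more in root than any other member apart from AOX1D. It read 7.38, 7.52 and 7.25 in starved roots and 4.79, 4.75 and 5.03 in control roots, a difference of 2.53 ± 0.38 (adjusted p = 3.02e-04, limma). Starved shoots read 6.02, 6.03 and 6.11 and control shoots 5.17, 4.44 and 4.85, a difference of 1.23 ± 0.38. The groups were apart in both tissues, and the gap was the wider in root.

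The P0 arrays lay entirely above the P1.25 arrays for 5 of 7 genes in root and for 6 of 7 in shoot, which the P0 lists again fix in part. Of the 3 genes named by the platform it held for 1 in root (NDB2), as for 15.5% of all transcripts, and for 3 in shoot, as for 19.2%. Without the replicate 3 arrays at P1.25 and P20, 4 of 7 were called in root (9.83% of all transcripts) and 6 of 7 in shoot (16.2%), where NDA2 was added.

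**Figure D2:**
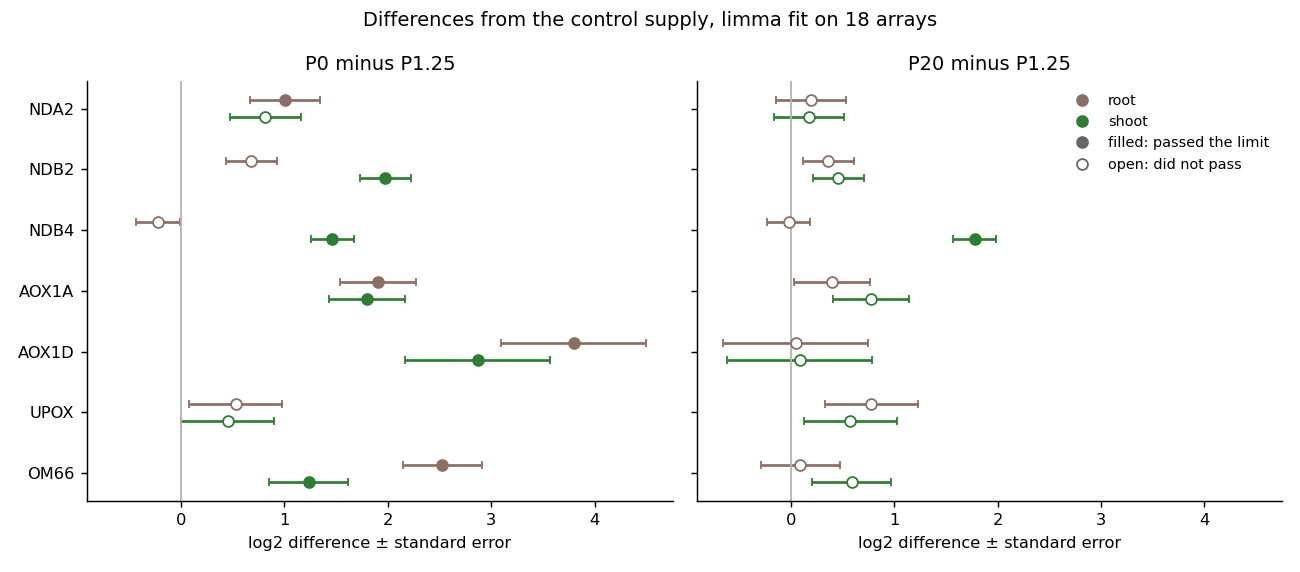
Log2 differences from P1.25 (points) with their standard errors (bars) from the limma model on 18 arrays, at P0 (left) and P20 (right), in root (brown) and shoot (green). Filled points were called changed. At P0 the open points are NDB2, NDB4 and UPOX in root and NDA2 and UPOX in shoot, and at P20 NDB4 in shoot (1.78) is the only filled point.

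The response to starvation was compared between the organs as the P0 effect in root minus that in shoot. NDB4 (-1.69 ± 0.30, adjusted p = 0.00229, limma) and NDB2 (-1.30 ± 0.35, adjusted p = 0.0256) rose more in shoot, so that 2 of 7 genes passed, against 17.1% of all transcripts. Both are external dehydrogenases, and both are named by the platform. The related dehydrogenases had the opposite sign in this comparison, with 0.57 ± 0.18 for NDC1 (adjusted p = 0.0481, limma) and 0.51 ± 0.42 for NDB3, also external (adjusted p = 0.483). For the 4 genes named by the P0 lists this difference is built in part on the effect that named them, so it is given without a p-value. It was 1.29 ± 0.54 for OM66 and 0.93 ± 0.99 for AOX1D, neither called. For NDA2, AOX1A and UPOX the differences were between 0.08 and 0.19. Leaving out the 4 replicate 3 arrays kept NDB2 (-1.30) and NDB4 (-1.41) among those called, while the share of all transcripts that passed went to 29.9%. It gave 1.37 for OM66 and 1.33 for AOX1D, both then past the limit. Leaving out shoot P20 replicate 3 alone was enough for OM66 to pass. Since the P0 effects of OM66 and AOX1D in part named them, these passes are not read as a test.

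Excess phosphate raised 1 of these genes, NDB4, in shoot. The shoot values of NDB4 were 5.34, 5.46 and 5.72 at P20 against 4.03, 3.71 and 3.44 at P1.25. All P20 shoots were above all control shoots, by 1.78 ± 0.21 or 3.43-fold (adjusted p = 0.0066, limma). The control level was low, at the 21st percentile of all transcripts. Over the array, 14 transcripts were called in this comparison (0.0365%), 10 of them higher (0.026%). The difference of NDB4 was the 25th largest rise, with falls not counted. NDB4 was called with any single array left out (1.63 to 1.93, adjusted p from 0.00721 to 0.0385) and without the replicate 3 arrays (1.53, adjusted p = 0.00512), but not in a fit on the 6 arrays of these groups alone (adjusted p = 0.367). In root it read 4.01, 4.04 and 4.56 at P20 against 4.07, 4.12 and 4.49, with a difference of -0.02 ± 0.21 (adjusted p = 0.998, limma). The P20 effect in root minus that in shoot was -1.80 ± 0.30 for NDB4 and missed the limit (adjusted p = 0.17, limma), where 0.0104% of all transcripts passed. It passed without the replicate 3 arrays (-1.59, adjusted p = 0.0502, with 0.989% of all transcripts) and when root P20 replicate 3 alone was left out. This comparison was added after the values of NDB4 had been seen.

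The other 6 genes were not called at P20 in either tissue, and 0 of 7 were called in root, where 0.0469% of all transcripts were. By limma 0 of 7 had an unadjusted p under 0.05 in root, and in shoot 1 did, NDB4. P20 arrays lay above all P1.25 arrays for NDB2 in root (7.37, 7.40 and 8.02 against a highest control value of 7.32), as for 6.24% of all transcripts, and for NDB4 in shoot, as for 6.65%. The largest of the other differences were 0.78 ± 0.37 for AOX1A in shoot (adjusted p = 0.568, limma) and 0.78 ± 0.45 for UPOX in root (adjusted p = 0.931).

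Much of the P20 difference in the oxidases and stress genes came from replicate 3. AOX1A read 6.23 and 5.94 on root P20 replicates 1 and 2 and 7.50 on replicate 3, and 8.20, 8.00 and 9.42 in shoot. AOX1D read 3.99, 4.22 and 6.23 in root and 5.74, 5.19 and 8.55 in shoot. In both genes and tissues replicate 3 stood above the other P20 arrays and below the P0 arrays. OM66 (4.67, 4.59 and 5.58 in root, 4.80, 4.84 and 6.58 in shoot) and UPOX (5.73, 5.29 and 7.62 in root, 7.92, 7.69 and 8.66 in shoot) also had replicate 3 on top, and it exceeded every P0 array of its tissue for UPOX in root and shoot and for OM66 in shoot. NDB2 read 7.37, 7.40 and 8.02 in root, above the P0 arrays on replicate 3, and 6.57, 6.78 and 7.81 in shoot. NDA2 read 5.46, 5.43 and 5.54 in root and 5.47, 5.26 and 6.602 in shoot, where replicate 3 was above the P0 arrays. Replicate 3 was the highest of its group for all 7 genes in both tissues, as for 34.4% of all transcripts in root and 34.8% in shoot. On the same arrays the markers moved too: shoot P20 replicate 3 had a green tissue sum of 56.1 against 63.2 and 62.7, and a root marker sum of 40.2 against 37.0 and 37.5. Shoot P1.25 replicate 3 had a green tissue sum of 58.7 against 64.6 and 64.9, and root P20 replicate 3 a root marker sum of 51.7 against 54.5 and 53.7. Their part in the result was not tested.

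Relative to the mean of replicates 1 and 2, AOX1D was higher by 3.08 on shoot P20 replicate 3, beyond 99.87% of all transcripts, and by 2.12 on root P20 replicate 3, beyond 99.70%. UPOX was higher by 2.12 in root (99.68%) and OM66 by 1.76 in shoot (98.78%). NDB4, the gene called in shoot, stood 0.32 higher on replicate 3 there (79.21%), against 0.85 to 3.08 for the other 6 genes. At P0 the same measure lay between -0.19 and 0.39 for all 7 genes in both tissues. Without the replicate 3 arrays at P1.25 and P20, AOX1D in P20 shoot turned from 0.08 ± 0.70 to -1.24 and was called lower (adjusted p = 0.0486, limma), when 3.1% of all transcripts were called. AOX1D was the gene of the 7 furthest off on the shoot P20 array left out, so this call is not read as a test. AOX1A in P20 shoot then differed by 0.21 (adjusted p = 0.586), OM66 by 0.02 and UPOX by 0.16.

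**Figure D3:**
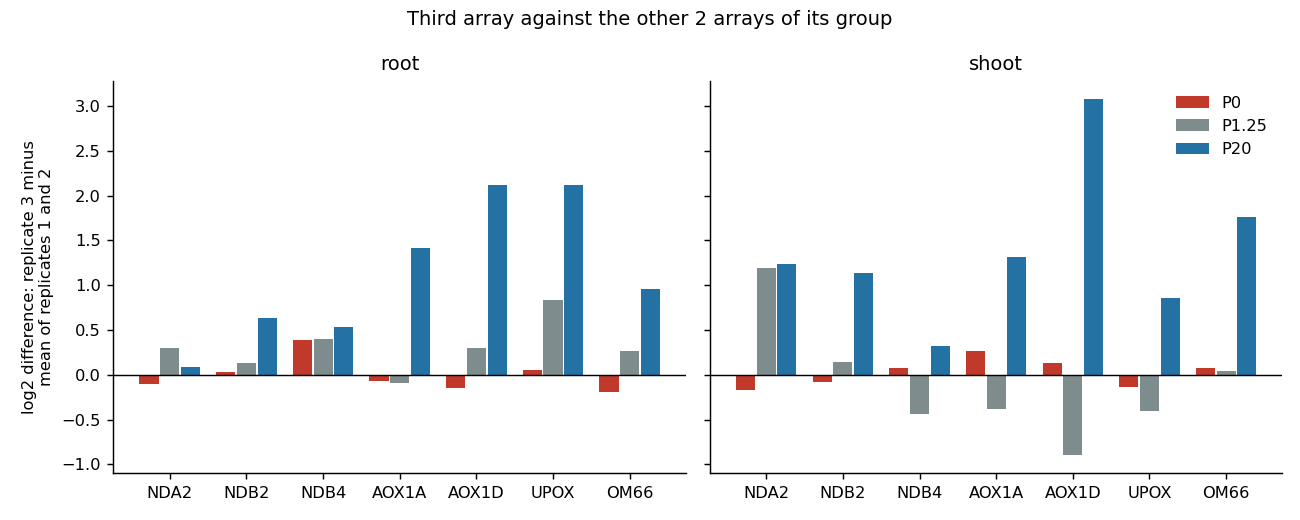
Log2 difference between replicate 3 and the mean of replicates 1 and 2 of the same group (bars, from 0), for the 7 genes in root (left) and shoot (right) at P0 (red), P1.25 (grey) and P20 (blue). The P20 bars are positive for every gene in both tissues and reach 3.08 for AOX1D in shoot, while the P0 bars stay between -0.19 and 0.39.

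At the control supply, 3 of 7 genes were called lower in root than in shoot, against 9.96% of all transcripts called lower and 17.2% called in either direction. The root P1.25 values of AOX1A and AOX1D are part of what named these genes. The 3 of 7 thus cannot be read against the background, and both genes are given without a p-value. Of the 3 genes named by the platform, 1 was called lower, UPOX. UPOX differed by -2.09 ± 0.45 (adjusted p = 0.00201, limma), with 5.13, 5.18 and 5.99 in root and 7.75, 7.55 and 7.25 in shoot. AOX1A differed by -1.61 ± 0.37, and its highest root value, 6.21, was far below its lowest shoot value, 7.51. AOX1D differed by -1.64 ± 0.70, and its call was lost in 11 of the 18 fits that leave out 1 array. Root values did not overlap with shoot values for these 3 genes, as for 18.5% of all transcripts in this direction. Of these genes only UPOX is named by the platform. NDB2 (0.64 ± 0.25) and NDB4 (0.50 ± 0.21) were higher in root with no overlap, as were 23.6% of all transcripts, but under 2-fold (adjusted p = 0.06 and 0.0861, limma). NDA2 differed by -0.32 and OM66 by 0.04 (adjusted p = 0.539 and 0.957, limma).

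Ordered by mean level, AOX1A ran from P0 shoot (9.57 ± 0.16, SD, n = 3) through P20 shoot (8.54 ± 0.77), P0 root (8.06 ± 0.05), P1.25 shoot (7.76 ± 0.29) and P20 root (6.56 ± 0.83) to P1.25 root (6.16 ± 0.05). Of these neighbours, P0 shoot was separate from P20 shoot, and P1.25 shoot from P20 root, while the arrays of the other neighbouring groups overlapped. AOX1D ran from P0 shoot (9.27 ± 0.08) and P0 root (8.56 ± 0.08), which were separate, through P20 shoot (6.49 ± 1.80), P1.25 shoot (6.41 ± 0.65) and P20 root (4.81 ± 1.23) to P1.25 root (4.76 ± 0.29), with overlap from P0 root downward. For OM66 the top group was P0 root (7.38 ± 0.13), separate from P0 shoot (6.05 ± 0.05), and the other groups from P20 shoot (5.41 ± 1.02) to P1.25 shoot (4.82 ± 0.36) overlapped in turn. OM66 was thus the only gene of the 7 with its highest mean in root.

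NDB4 was highest in P20 shoot (5.505 ± 0.19) and P0 shoot (5.19 ± 0.23), which overlapped with each other and were separate from the rest. The remaining means followed in the order P1.25 root (4.225 ± 0.23), P20 root (4.204 ± 0.31), P0 root (4.001 ± 0.30) and P1.25 shoot (3.73 ± 0.30), all overlapping with their neighbours. NDB2 had P0 shoot on top (8.57 ± 0.05), separate from P0 root (7.91 ± 0.03), which overlapped with P20 root (7.59 ± 0.36). P20 root was separate from P1.25 root (7.23 ± 0.09), and this group, P20 shoot (7.05 ± 0.66) and P1.25 shoot (6.595 ± 0.12) overlapped in turn. In UPOX the 3 shoot groups (8.09 ± 0.51 at P20, 7.97 ± 0.10 at P0 and 7.52 ± 0.25 at P1.25) came before the 3 root groups (6.21 ± 1.24 at P20, 5.96 ± 0.16 at P0 and 5.43 ± 0.48 at P1.25). P0 shoot was separate from P1.25 shoot, and all other neighbours overlapped, P1.25 shoot and P20 root through replicate 3 of the latter. Every neighbouring pair overlapped in NDA2, from P0 shoot (6.42 ± 0.11) to P1.25 root (5.28 ± 0.26).

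Genes with related roles were read from lists by locus, of which 36 of 66 loci had a transcript. Among 13 further genes of mitochondrial and chemical stress, 9 had a transcript, and at P0 4 of them were called higher in root and 5 in shoot, with median differences of 1.28 and 1.92. Of the 7 named by the platform, 2 were called higher in root (median 1.18), as were 4.69% of all transcripts, and 3 in shoot (median 1.14), as were 6.12%. When the replicate 3 arrays were left out, 6 of 9 were called at P0 in each tissue, against 9.83% of all transcripts in root and 16.2% in shoot. Among the 7 named by the platform, 4 were then called in each tissue. They included HSP23.5, a mitochondrial small heat shock protein, as lower (-1.08 in root and -1.04 in shoot). AT12CYS-2 (AT5G09570), a small twin-cysteine protein of mitochondria named by the platform, read 6.99, 6.29 and 7.06 in starved roots against 4.85, 4.74 and 4.56 in control roots (2.07 ± 0.31, adjusted p = 2.79e-04, limma). Starved shoots read 9.30, 9.04 and 9.33 against 4.66, 5.02 and 3.74, a rise of 4.75 ± 0.31 or 26.9-fold (adjusted p = 9.45e-08). Its effect was the larger in shoot, by 2.68 ± 0.44 (adjusted p = 0.0014, limma), the same direction as NDB2 and NDB4.

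The glutathione transferases GSTU24 (2.81 in root and 3.56 in shoot) and GSTU25 (1.28 and 2.66) and the cytochrome P450 CYP81D8 (1.74 and 1.92) were called higher at P0 in both tissues. GSTU24 and CYP81D8 owe their names to the P0 lists. AT2G04050, a MATE efflux protein named by the platform, rose in starved shoot by 2.99 ± 0.71 (adjusted p = 0.00549, limma). Its shoot values at P20 were 8.04, 8.08 and 9.99 against 5.87, 5.27 and 5.28 at P1.25. This difference of 3.23 ± 0.71 was the largest rise of all transcripts but did not pass (adjusted p = 0.229, limma). That of its neighbour in the family AT2G04070 did not pass either (2.18, adjusted p = 0.369). At P20 limma called 0 of the 9 genes of this list in each tissue, with an unadjusted p under 0.05 for 1 in root and 2 in shoot. AT2G04050 was called in P20 shoot when the replicate 3 arrays were left out (2.49, adjusted p = 1.89e-04, limma).

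Transcription factors reported to act on these genes were represented by 3 of 11 loci, each named by a P0 list. The NAC factor ANAC053 was higher at P0 by 1.095 in root and 1.15 in shoot, WRKY40 by 2.01 and 1.75, and the MYB factor MYB29 by -0.20 and -2.59. Of 6 mitochondrial carriers of the uncoupling and dicarboxylate type, 3 had a transcript and none was named by the platform. DIC2 (2.01 and 1.98) and UCP5, a dicarboxylate carrier also called DIC1 (1.69 and 2.00), were higher at P0 in both tissues. DIC3 was named by another of the study's tables and differed by 0.43 ± 0.10 in root and 2.64 ± 0.10 in shoot. At P20 in root these carriers differed from P1.25 by -1.06 for DIC2, -0.56 for UCP5 and -0.29 for DIC3, with 0 of 3 called by limma and 1 at an unadjusted p under 0.05. Without the replicate 3 arrays all 3 were called lower there (-2.06, -1.16 and -0.41, adjusted p = 3.64e-04, 7.02e-04 and 0.0859), as was WRKY40 (-1.47, adjusted p = 9.21e-04), when 2.61% of all transcripts were called.

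Subunits of the cytochrome pathway and of complexes I, II and V had median differences near 0, and their called shares in shoot were near that of all transcripts (13.7%, and 9.23% in root). Of 10 cytochrome pathway genes with a transcript, limma called 0 at P0 in root (median -0.19, 6 with an unadjusted p under 0.05) and 1 in shoot (median 0.23). That gene was CYTC-2, a cytochrome c, which read 9.58, 9.64 and 9.68 in starved shoots against 8.26, 8.33 and 8.05 in control shoots (1.42 ± 0.12, adjusted p = 9.59e-07, limma). The 9 other genes differed by at most 0.69 in shoot, and 6 of them passed the p limit under 2-fold, led by QCR7 and CYC1-1 of complex III (0.69 and 0.68). The share of all transcripts past the p limit at any fold was not taken, so these 6 are not read against a background. Of 9 genes of complexes I, II and V, 0 were called in root (median -0.20, 4 with an unadjusted p under 0.05) and 1 in shoot (median 0.29), the flavoprotein subunit SDH1-1 of complex II (1.00 ± 0.14, adjusted p = 1.16e-04), which lay at 2.01-fold. The effect of starvation differed between tissues for 7 of the 10 cytochrome pathway genes and 5 of the 9 complex genes, each lower in root than in shoot, against 8.98% of all transcripts in this direction. At P20 limma called 0 of these genes in root, where 2 of the cytochrome pathway and 1 of the complexes had an unadjusted p under 0.05, and 0 in shoot, where 3 and 0 had, and CYC1-1 had the smallest adjusted p in shoot (0.42, adjusted p = 0.28, limma). CYTC-2 was called lower in P20 root without the replicate 3 arrays (-0.43, adjusted p = 0.0416, limma).

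**Figure D4:**
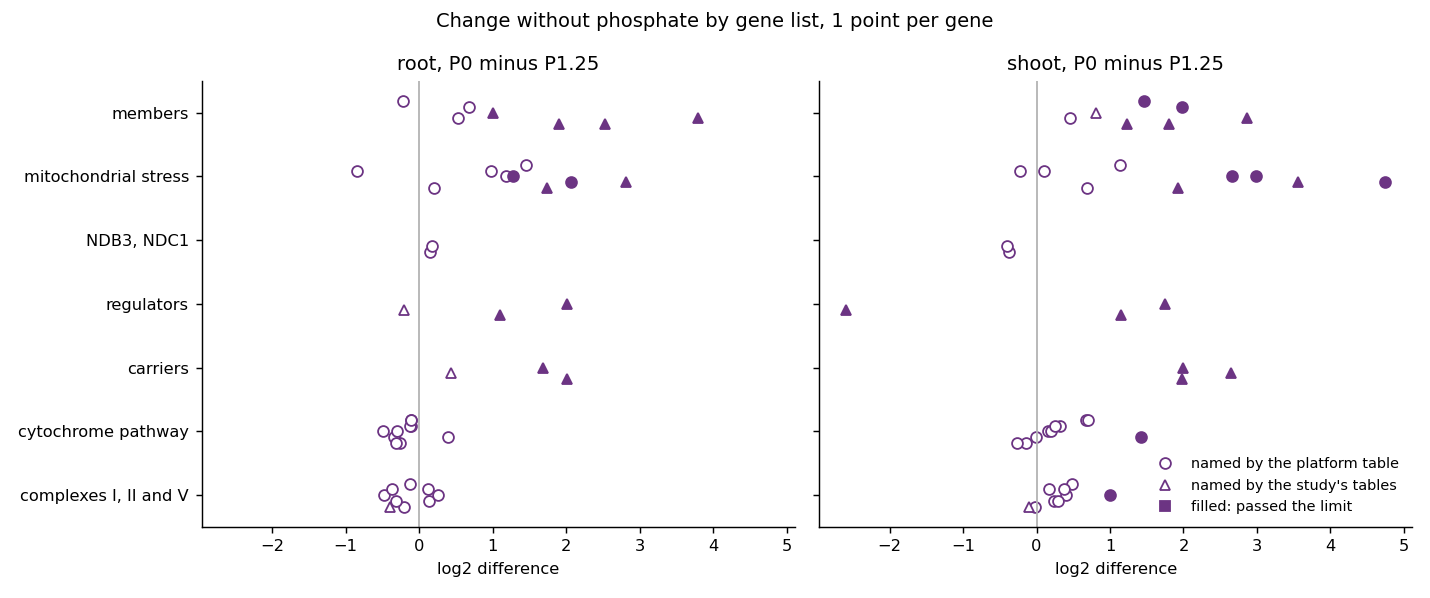
Log2 difference between P0 and P1.25 in root (left) and shoot (right), 1 point per gene, for the 7 genes (members) and the lists of related genes. Circles are genes named by the platform, triangles are genes named by the study's tables, and filled symbols were called changed. No gene of the cytochrome pathway or the complexes passes the fold limit apart from CYTC-2 (1.42) and SDH1-1 (1.00) in shoot, while AT12CYS-2 reaches 4.75 in shoot.

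Likeness of pattern was measured by Pearson's r over the 18 arrays, against 17791 transcripts with 1 gene, and is a description only, since all points share tissue and treatment. Within the set, AOX1A and AOX1D ran most alike (r = 0.89), followed by AOX1D and OM66 (0.82) and AOX1A and UPOX (0.80), whereas UPOX and OM66 had an r of 0.07 and NDB4 and OM66 one of 0.12. The transcripts nearest to AOX1A were AT4G33540 (0.98), the efflux protein DTX1 (0.97) and AT5G61820 (0.96). Those nearest to AOX1D were the NAC factors NAC102 (0.97) and ATAF2 (0.97) and the trypsin inhibitor TI1 (0.97). NDB4 had looser company, with AT2G04050 (0.85), AT4G31354 (0.84) and AT2G18190 (0.80). Nearest to NDB2 were AT5G55070, AT5G19440 and AT5G40690 (0.94 to 0.95), to NDA2 the kinase MPK11, AT1G21320 and AT1G22870 (0.92 to 0.93), to UPOX AT5G43450, AT3G11210 and AT4G12735 (0.94 to 0.97), and to OM66 AT4G20830, AT2G32130 and AT5G49690 (0.96 to 0.97).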

How the data were processed

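RNA of root and shoot at 3 phosphate supplies was measured on 18 arrays. The authors normalized the arrays by RMA in Partek Genomics Suite 6.6 and deposited log2 values for 38408 transcripts, 1 column per array. No detection calls are part of these values, 0 columns belonged to other samples, and a genome build is not given in the sources used here. The values were used as deposited in limma 3.58.1 (R 4.3.3), with figures from matplotlib 3.10.9 in Python 3.11.15. The 2.43 prior degrees of freedom of the empirical Bayes step stood beside 12 residual ones. Since arrays give no counts, their number limits the precision.

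Genes were paired with transcripts through the platform table (16722 transcripts with 1 gene) and the study's supplementary tables as far as they were given (another 1105), whose columns of fold changes and p-values were not used. Among all transcripts 7132 hold values identical to another. The member genes, gene lists and markers were chosen with earlier results of these data known. Named are all members with a transcript; of a list, up to 4 called genes with the smallest adjusted p, or the 2 smallest where none was called; and the 3 transcripts most like each member. For a gene with several transcripts the highest mean was used.

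Replicate numbers in the labels were checked as pairs through the correlation of deviations from group means. P20 and P1.25 arrays of the same number correlated at 0.136, 0.130 and 0.291 in shoot and at 0.077, 0.127 and 0.225 in root. For P0 and P1.25 arrays the values lay between -0.0066 and 0.0582. The main model had no block, since the methods name a two-way model without it. Alternatives covered the error model, the arrays in the fit, a replicate block, the transcripts tested, the scaling and the limits. The P20 interaction was added after values were seen. A planned search of promoters was not run.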

Additional observations from a re-analysis of the deposited data

Results flagged for a closer look

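The starvation effects of NDB2 and NDB4 differed between root and shoot by the interaction test in limma. The P0 effect in root minus that in shoot was -1.30 for NDB2 (adjusted p = 0.0256) and -1.69 for NDB4 (adjusted p = 0.00229). Of all transcripts 17.1% passed in this comparison. Every starved shoot was above every control shoot for both genes, as for 19.2% of all transcripts. In root this held for NDB2, as for 15.5%, and not for NDB4. NDB4 was low in control shoot, at the 21st percentile, and no detection calls are given. Of the 6 root markers, 5 were called in the same direction, which the list for P0 in root fixes in part. Their part in the result was not tested. With any 1 array left out both differences kept their call, at -1.35 to -1.23 for NDB2 and -1.84 to -1.52 for NDB4.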

How the results depend on the processing

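Over the alternatives, 1306 of 1386 single values kept their direction and their side of the limit. With the replicate block no call changed, and NDB4 in P20 shoot kept 1.78 (adjusted p = 0.00909, limma). In P20 shoot the count of called genes went from 1 to 0 with the 6 arrays of the groups. It went to 2 without the replicate 3 arrays at P1.25 and P20, when 3.1% of all transcripts were called. For the P0 effect between tissues it went from 2 to 4 without these arrays, with 29.9% of all transcripts called. The genes added were OM66 and AOX1D, both named by the P0 lists. For root against shoot at P1.25 it went from 3 to 5 at any fold, where the share of all transcripts was not taken. For the P20 effect between tissues it went from 0 to 1 with array weights or without these arrays (0.989% of all transcripts without them). Leaving out 1 array gave 3 to 4 genes for P0 root, 5 to 6 for P0 shoot, 0 to 0 for P20 root, 1 to 1 for P20 shoot, 2 to 3 and 0 to 1 for the tissue differences of P0 and P20, and 2 to 3 for root against shoot. The share of all transcripts was not taken for these fits, so their counts are not read against a background.

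Values that changed sign were not called as reported, and the cause was not tested. Without the replicate 3 arrays these were, in P20 root, AOX1A -0.10, AOX1D -0.56 and OM66 -0.14, in P20 shoot AOX1D -1.24, between tissues NDA2 -0.11 at P0 and NDB2 0.0662 and AOX1D 0.68 at P20, and OM66 -0.0357 at P1.25. Array weights turned AOX1D (-0.42) and OM66 (-0.0423) in P20 root, AOX1D (-0.89) in P20 shoot, NDA2 (-0.0450) between tissues at P0, NDB2 (0.0610) and AOX1D (0.48) at P20, and OM66 (-0.10) at P1.25. Quantile scaling turned NDB4 in P20 root (0.0012) and AOX1D between tissues at P20 (0.0234), and centring turned AOX1D in P20 root (-0.0041). With 1 array left out, sign changes lay within these ranges. In P20 root they were -0.20 to 0.11 for NDB4, -0.0716 to 0.71 for AOX1A, -0.66 to 0.46 for AOX1D and -0.23 to 0.27 for OM66, and in P20 shoot -0.23 to 0.57 for NDA2 and -0.94 to 0.74 for AOX1D. For the P0 effect between tissues they were -0.21 to 0.55 for NDA2, -0.0526 to 0.23 for AOX1A and -0.0698 to 0.36 for UPOX, and at P1.25 -0.68 to 0.0807 for NDA2 and -0.15 to 0.21 for OM66. For the P20 effect between tissues they were -0.38 to 0.43 for NDA2, -0.34 to 0.28 for NDB2, -0.85 to 0.0643 for AOX1A, -0.74 to 0.99 for AOX1D, -0.50 to 0.67 for UPOX and -0.82 to 0.0891 for OM66.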
